A study of Mus musculus with 4 samples.

Results

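AP-1 is a family of transcription factors that bind DNA as pairs, a Fos or Atf protein with a Jun protein or a pair of Jun proteins. The genes of several members belong to the immediate early genes, which cells transcribe within minutes of a growth factor signal without making new protein first. Kinase cascades below receptor tyrosine kinases reach them through SRF, which sits with its ETS partners on CArG boxes, and through ATF and CREB proteins on cyclic AMP response elements. Egr1, a zinc finger factor outside AP-1, is switched on by the same route. Chromatin at 9 such genes was examined here: Fos, Fosb, Fosl1 and Fosl2 of the Fos family, Jun, Junb and Jund of the Jun family, Atf3, and Egr1. They were taken by name from the 21951 protein-coding genes of GENCODE M21. For each gene, peaks were collected over its promoters (1 kb on either side of any annotated start) and over its body with 30 kb on either side.

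The assay was ATAC-seq, in which a transposase inserts adapters into open chromatin. It was done on intracranial tumors of mG7080, a murine glioblastoma line grown as spheres. The KO group had 2 tumors from ESM1-KO hosts and the WT group 2 tumors from WT hosts, all young adult female C57BL/6 mice. Endocan, the product of Esm1, is a proteoglycan that the endothelium releases, and the comparison asks whether a host without it leaves the tumor with altered chromatin. The deletion was in the host, so the tumor cells of both groups carried their own Esm1 gene. The labels speak of tumor tissue and the study's methods of fresh tumor cells, while its results describe sphere cultures from such tumors, and which of these entered the libraries was not settled. In bulk libraries of this kind, fewer cells with an open site and a less open site in every cell cannot be told apart.

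Each library gave 1 peak list, with 82975 and 85418 peaks in the KO libraries and 63000 and 100088 in the WT libraries. The height of a peak is the pileup of sequenced tags at its summit, and a library's lowest local background served as a measure of depth. That background was 6.03 and 6.71 in KO and 4.41 and 6.85 in WT, and the absence of a peak is least firm in WT replicate 1, the shallowest. No peak lay over the Esm1 promoter in any library, so promoter peaks gave no check of the genotype. None of 12 microglia and macrophage markers had a promoter peak in all 4 libraries, and 8, among them Cx3cr1, P2ry12, Csf1r and C1qa, had none in any. Aif1, Cd68, Trem2 and Tmem119 had one in at least 1 library, with 2 and 3 markers open in the KO libraries, against 0 and 3 in WT. Of 12 endothelial markers 3 had a promoter peak in all 4 libraries (Kdr, Esam and Egfl7), and 6 had none in any, among them Pecam1, Cdh5 and Tek. Of 8 mature oligodendrocyte markers, 3 and 3 had a promoter peak in the KO libraries, against 7 in WT replicate 1 and 3 in WT replicate 2. Their summed height, as multiples of the median promoter, was 1.63 and 1.55 in KO, against 4.14 and 1.64 in WT. The part of this in the comparisons below was not tested.

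The regions the results turn on carry short elements that these factors or their regulators bind, and a few are shown here, read from GRCm38.p6 on the strand of the gene, 5′ to 3′. The promoter of Fos has the CArG box of its serum response element (chr12:85473556-85473615), and a region downstream of Fos has another CArG box with an EGR site, the element that Egr1 binds (chr12:85486089-85486224). The Fosb promoter has an ATF element and a CArG box (chr7:19310283-19310393), and a region upstream of Fosb has an ATF element that abuts an AP-1 site (chr7:19327323-19327387). The Jun promoter has the paired elements jun2 and jun1, variant AP-1 sites through which Jun is known to drive its own gene (chr4:95052235-95052411). Further stretches are shown because they stand in regions of the other Jun genes: the AP-1 sites upstream of Junb (chr8:84985632-84985782), the cyclic AMP response element (CRE) of the Jund promoter (chr8:70698710-70698767), and an AP-1 site in each of a pair of regions upstream of Jund (chr8:70682306-70682362 and chr8:70684484-70684540). Capitals mark the elements and lower case the bases around them.
Fos promoter: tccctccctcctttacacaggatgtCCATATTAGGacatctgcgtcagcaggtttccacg
Fos downstream region: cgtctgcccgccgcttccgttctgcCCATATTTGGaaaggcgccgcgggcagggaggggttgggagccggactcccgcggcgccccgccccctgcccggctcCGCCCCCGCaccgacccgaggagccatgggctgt
Fosb promoter: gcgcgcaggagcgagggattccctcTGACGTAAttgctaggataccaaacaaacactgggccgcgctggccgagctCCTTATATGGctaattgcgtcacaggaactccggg
Fosb upstream region: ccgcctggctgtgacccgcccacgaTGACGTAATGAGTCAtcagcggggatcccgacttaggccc
Jun promoter: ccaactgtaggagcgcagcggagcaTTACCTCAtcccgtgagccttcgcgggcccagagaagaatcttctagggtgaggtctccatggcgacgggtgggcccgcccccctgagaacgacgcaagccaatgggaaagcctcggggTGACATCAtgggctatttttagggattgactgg
Junb upstream region: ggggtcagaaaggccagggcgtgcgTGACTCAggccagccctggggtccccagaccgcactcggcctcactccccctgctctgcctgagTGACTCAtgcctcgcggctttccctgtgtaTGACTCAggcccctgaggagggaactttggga
Jund promoter: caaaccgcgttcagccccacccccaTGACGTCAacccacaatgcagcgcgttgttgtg
Jund upstream region at 16.6 kb: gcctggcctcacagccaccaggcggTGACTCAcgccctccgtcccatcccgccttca
Jund upstream region at 14.4 kb: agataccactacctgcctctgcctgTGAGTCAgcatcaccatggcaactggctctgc

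All 9 genes had a promoter peak in all 4 libraries, and none of the 9 promoters passed the test for a height difference between KO and WT tumors. Of all protein-coding genes, 62.3% were open at a promoter in every library. Promoter heights were compared by limma on log2 heights after each library was centred on its median, over the 13675 promoters open in every library, with Benjamini-Hochberg adjustment. Of these promoters 0.0146% were called higher in KO and 0% lower (2 and 0 promoters), and 0 of the 9 were called in either direction, with a lowest adjusted p of 0.998. At an unadjusted p under 0.05, limma gave 0 of the 9, against 3.82% of all promoters. The median log2 difference (KO minus WT) was 0.042 over the 9 genes and −0.0048 over all promoters tested. The 95% confidence intervals reached as low as −0.64 (Fosl1) and as high as 0.66 (Atf3) on the log2 scale, so changes within those limits could have been missed. A separate limma fit over all peak regions, used below for distal regions, gave wider intervals at several of the same promoter peaks. For the Jun peak it gave −0.65 to 0.54, against −0.25 to 0.17 in the promoter fit. For Egr1 it gave −0.56 to 0.62, against −0.17 to 0.25, and for Fosl1 a similar −0.65 to 0.34. Interval widths therefore depend on the fit. An exact permutation of 2 against 2 tumors cannot give a p below 0.33, so single values were not tested that way.

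Among the Fos family, Fos itself, the founding partner of Jun, had a promoter peak at chr12:85473332-85474880 of 78 and 97 in KO, against 70 and 88 in WT. Divided by the median promoter height of each library (75 and 87 in KO, 65 and 87 in WT), these were 1.04 and 1.11 in KO, against 1.08 and 1.01 in WT. The groups overlapped, and the log2 difference was 0.045 (95% interval −0.20 to 0.29, SE 0.12). The CArG box shown above lay 304 bp before the Fos start and 150 bp from the summit. Fosb, a Fos relative with the same Jun partners, had peaks at its 5′ end and within its body. The taller, at chr7:19307629-19308951, stood at 101 and 99 in KO, against 82 and 110 in WT, which gave a log2 difference of −0.029 (−0.25 to 0.20). The peak upstream of the start, at chr7:19310043-19310644, held the CArG box and ATF element and stood at 67 and 92 in KO, against 52 and 79 in WT. With promoters of 500 bp the upstream peak represented Fosb and the difference was 0.18, again with no call.

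Fosl2, which encodes Fra-2, had a promoter peak at chr5:32134993-32136766 of 100 and 115 in KO, against 71 and 120 in WT. Relative to the median promoter the KO libraries stood at 1.33 and 1.32, between WT replicate 1 at 1.09 and WT replicate 2 at 1.38, and the log2 difference was 0.11 (−0.13 to 0.35). Its most downstream annotated start had no peak in any library. Fosl1, which encodes Fra-1, had the lowest promoter of the Fos family, at chr19:5447488-5448303, with 43 and 40 in KO, against 33 and 55 in WT. That is 0.57 and 0.46 of the median promoter in KO, against 0.51 and 0.63 in WT. The log2 difference of −0.14 had the widest interval of the 9 (−0.64 to 0.36).

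The Jun promoter, at chr4:95051355-95053555, was among the tallest of the set, with 125 and 149 in KO, against 121 and 141 in WT. The jun2 element lay 6 bp from the summit and the jun1 element 125 bp from it. The log2 difference was −0.040 (−0.25 to 0.17). Junb, often an antagonist of Jun, had a peak of 92 and 113 in KO, against 73 and 102 in WT, over its main start (chr8:84977490-84979089), and further peaks on either side of it. The tallest peak over any Junb start stood at 1.29 median promoters on average in KO, against 1.19 in WT. In replicate 1 of both groups this was the peak at chr8:84976138-84976821 (96 in KO, 79 in WT). In replicate 2 of both it was the peak over the main start, so the values used for Junb come from different peaks. Junb was the only promoter of the 9 whose groups did not overlap, with KO above WT, as they did in 14.9% of all promoters. Its log2 difference was 0.11 (−0.098 to 0.32, unadjusted p = 0.277 by limma). KO lay entirely below WT at 0 of the 9, against 16.2% of all promoters. With heights divided by the median shared region instead of the median promoter, the groups overlapped at each Junb peak, while Fosl2 separated with KO above WT and Fosl1 with KO below. Jund, the Jun gene that resting cells also express, had a promoter at chr8:70698257-70700168 of 105 and 143 in KO, against 99 and 131 in WT. Its log2 difference was 0.0024 (−0.21 to 0.22), and the CRE shown above lay 210 bp before its start.

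Atf3, a stress-induced factor that pairs with Jun proteins, had a promoter peak at chr1:191182355-191184318 of 44 and 74 in KO, against 39 and 54 in WT. KO replicate 2 stood apart at 0.85 median promoters, with KO replicate 1 at 0.59 and the WT libraries at 0.60 and 0.62. The log2 difference was 0.21 (−0.24 to 0.66), and it was −0.065 without KO replicate 2. The most upstream start of Atf3 had no peak in any library, and the peak lay over its downstream starts. Egr1 had a promoter at chr18:34859713-34861828 of 135 and 146 in KO, against 116 and 139 in WT. The log2 difference was 0.042 (−0.17 to 0.25). The Egr1 peak held 5 CArG boxes, from 402 to 78 bp before the start of Egr1-202, and 2 EGR sites.

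**Figure D1:**
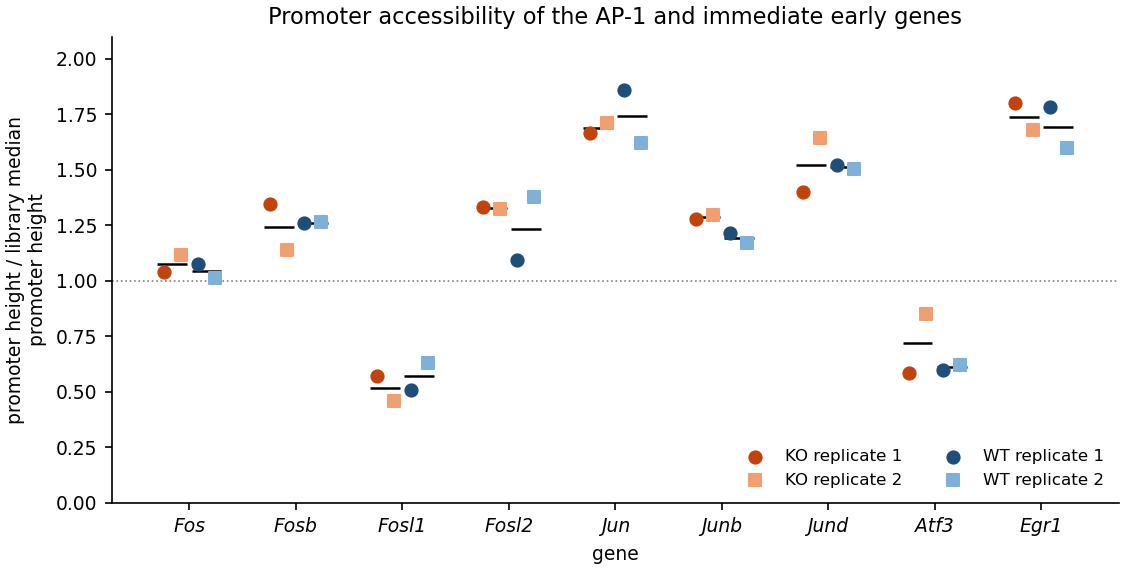
Height of the tallest promoter peak of each gene divided by the median promoter height of its library, for 2 KO and 2 WT tumors. Points are tumors, short lines are group means and the dotted line is the median promoter. Jun and Egr1 stood highest, both with a mean of 1.72, Fosl1 and Atf3 lowest at 0.46 to 0.85, and the KO and WT points overlapped at every gene but Junb.

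The order of the 9 promoters was much the same in each library. Over the 4 libraries Jun averaged 1.72 ± 0.10 median promoters and Egr1 1.72 ± 0.095 (SD, n = 4), and the pair did not differ beyond its spread. Jund followed at 1.52 ± 0.10, with a range that overlapped those of Jun and Egr1. Fosl2 at 1.28 ± 0.13, Fosb at 1.25 ± 0.086 and Junb at 1.24 ± 0.058 could not be ordered, and all their values lay below the lowest of Jund. Fos ranked 7 in every library, at 1.06 ± 0.045. Atf3 at 0.66 ± 0.12 and Fosl1 at 0.54 ± 0.075 lay below the median promoter in all 4 libraries and overlapped each other. Jun lay between the 95.5 and 97.4 percentiles of promoter heights, and Fosl1 between the 12.2 and 21.9 percentiles. The deposited fold over local background gave another order. Fold was 4.94 to 5.16 at Atf3 and 3.90 to 5.29 at Fosl1, against 3.10 to 3.83 at Egr1 and 2.59 to 3.31 at Junb. Local background at the tallest Junb peak of each library was 5.25 to 6.40 times that of the genome, and at the Fosl1 peak 1.26 to 1.42 times.

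**Figure D2:**
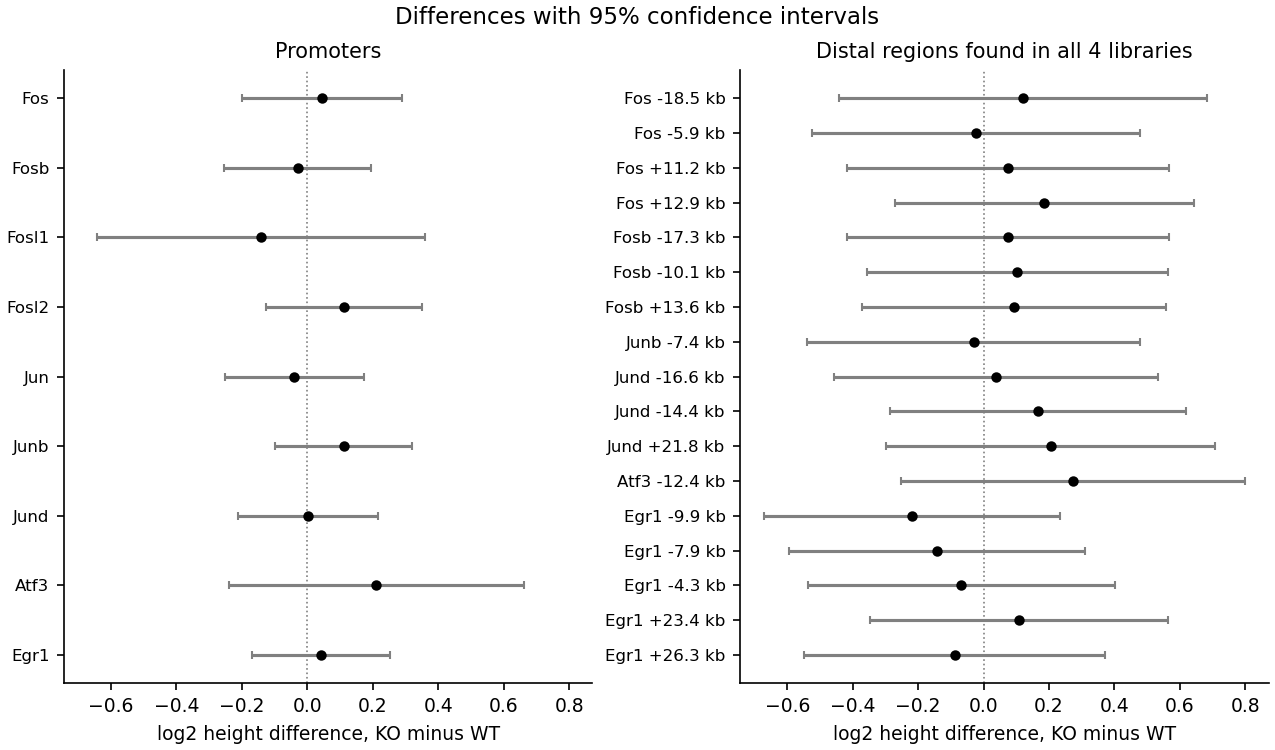
Log2 difference in peak height (KO minus WT, each library centred on its median) with the 95% confidence interval from limma, for the 9 promoters and for the 17 distal regions found in all 4 libraries, named by gene and distance from its nearest start. Every interval includes 0. Promoters and regions were fitted separately, so interval widths do not compare between the panels. The largest promoter difference is 0.21 at Atf3 and the largest distal difference 0.27, upstream of Atf3.

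Beyond the promoters, none of the 9 genes had a distal region with a peak in both tumors of 1 group and in neither of the other. Peaks of the 4 libraries were merged into 122166 regions, of which 71 touched a gene of the set or its flanks. Of these, 12 lay over the gene's own promoters, 22 over a promoter of another gene and 37 were distal, that is, over no annotated promoter. Distances of regions are given from the summit to the nearest annotated start of the gene, which differs between regions where a gene has several starts. Of the 37 distal regions, 17 were found in all 4 libraries, or 45.9%, against 31.9% of all 98049 distal regions. Regions with a peak in both KO and neither WT library numbered 0, against 1.85% of all distal regions, and the reverse also 0, against 1.6%. Neither share, taken alone, comes to 1 of 37 regions. Most of the rest, 14 regions (37.8%), were seen in a single library, against 32.6% of all distal regions. In the KO libraries these were 3 and 4 (8.11% and 10.8%, against 3.95% and 8.83% of all distal regions). In the WT libraries they were 2 and 5 (5.41% and 13.5%, against 3.46% and 16.3%). Their heights were 16 to 58 with a median of 24, where the lowest height called anywhere was 15 and 16 in the KO libraries and 13 and 16 in the WT libraries. A further 3 were missing in WT replicate 1 alone, or 8.11%, against 13.8% of all distal regions.

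None of the 17 shared distal regions passed the test for a height difference. By limma over the 48089 regions open in every library, 0.0374% were called higher in KO and 0.00208% lower, and 0 of the 17 were called. The lowest unadjusted p among them was 0.307, 0 of the 17 were under 0.05 and 3.08% of all regions were. Differences ran from −0.22 to 0.27 on the log2 scale, with SEs of 0.23 to 0.29 and 95% limits out to −0.67 and 0.80, and 11 were positive and 6 negative. Their median was 0.076, against −0.0041 over all regions tested. KO lay entirely above WT in 3 of the 17 and entirely below in 1, against 15.5% and 14.9% of all shared distal regions.

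**Figure D3:**
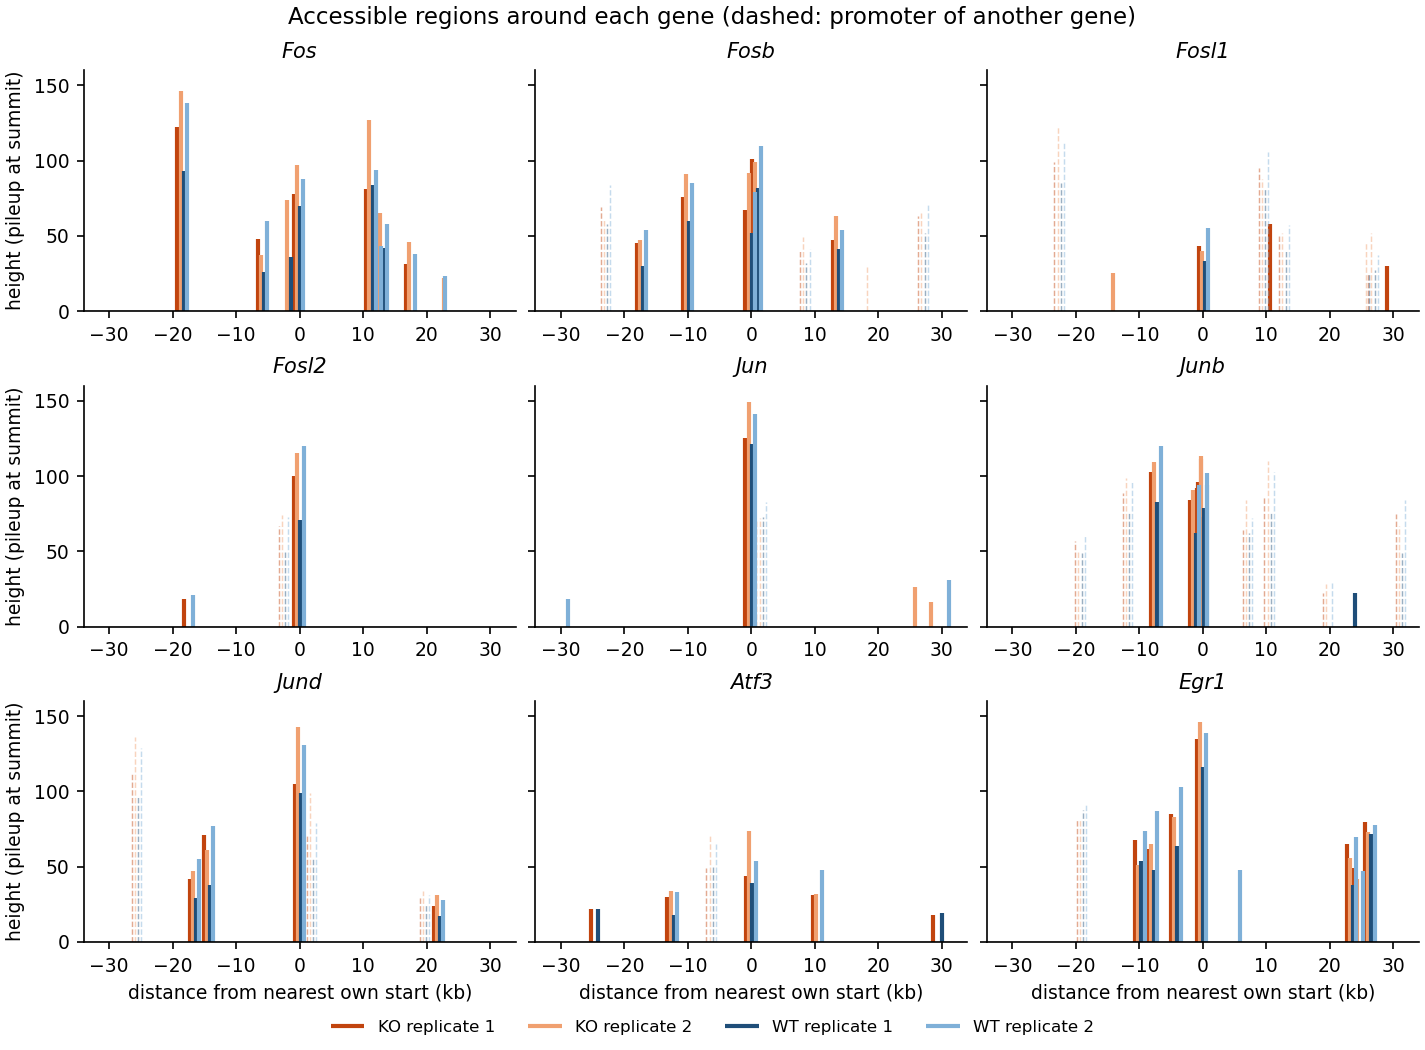
Height of every peak region around each gene against the distance of its summit from the gene's nearest annotated start, in the direction of transcription, for 2 KO and 2 WT tumors. Lines of the 4 libraries are drawn side by side, solid for the gene's own promoters and distal regions, dashed for promoters of other genes. Fos, Fosb, Jund and Egr1 have several distal regions shared by all libraries, and Jun, Fosl1 and Fosl2 have none.

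Distal regions were spread unevenly over the genes. Fos had 9 distal regions, 4 of them in all libraries, and Egr1 had 7, with 5 in all. Fosb and Jund had 3 each, all shared. Atf3 had 5 and Junb 2, with 1 shared region each. Jun had 4, Fosl1 3 and Fosl2 1, and none of these was found in every library. Over all coding genes with an open promoter the median was 1 shared distal region, and 28.3% had none. Jun thus had a tall promoter and no shared distal region within 30 kb, where distal means over no annotated promoter of any gene. A region in its exon 1.6 kb past the start (chr4:95050452-95050964) was shared but counted as a promoter of Junos. Fosl2 likewise had a shared region 2.6 kb upstream that counted as a promoter of Gm10463. With only coding starts counted as promoters, the 9 genes had 43 distal regions, 23 of them shared.

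The tallest distal region of the whole set lay 18.5 kb upstream of Fos, between genes, at chr12:85454889-85456091. Its height was 122 and 146 in KO, against 93 and 138 in WT, with a log2 difference of 0.12 (−0.44 to 0.68). It stood above the Fos promoter in every library, by 1.56 and 1.51 times in KO, against 1.33 and 1.57 times in WT. Among 9811 coding genes with an open promoter and a shared distal region, the tallest distal region stood above the promoter in all 4 libraries at 8.82%. A region 11.2 kb downstream of the nearest Fos start, at chr12:85485557-85486602, had 81 and 127 in KO, against 84 and 94 in WT. Its CArG box, shown above, lay 29 bp from the summit and its EGR site 47 bp. The other shared regions lay 5.9 kb upstream, with 48 and 37 in KO, against 26 and 60 in WT, and 12.9 kb downstream, with 57 and 65 in KO, against 42 and 58 in WT. The groups overlapped at both, also after division by the median shared region.

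**Figure D4:**
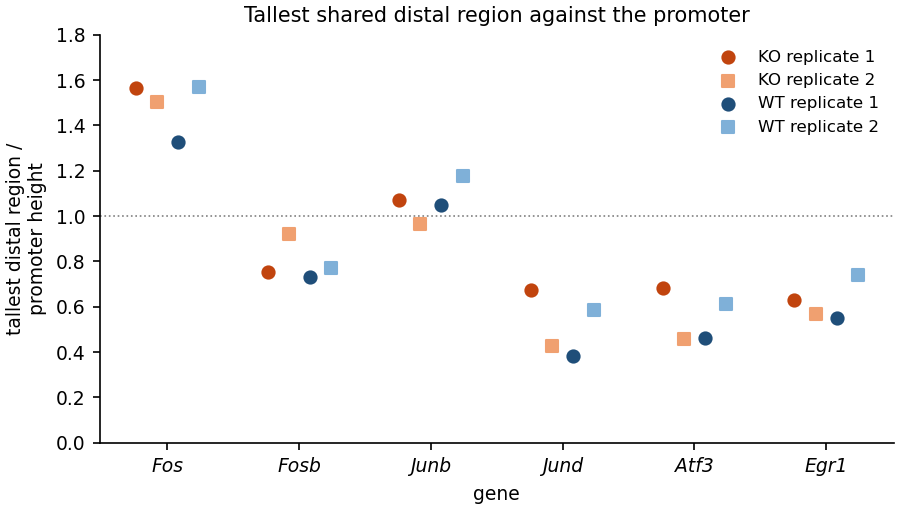
Height of the tallest shared distal region divided by the height of the promoter in the same library, for the 6 genes that have such a region, in 2 KO and 2 WT tumors. The dotted line marks equal height. At Fos the ratio was 1.33 to 1.57, above 1 in every library, and at Egr1 0.55 to 0.74.

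Junb came nearest to Fos in this measure. Its region 7.4 kb upstream, at chr8:84985317-84986539, stood at 103 and 109 in KO, against 83 and 120 in WT, or 1.07 and 0.96 times the promoter in KO, against 1.05 and 1.18 times in WT. It held 4 AP-1 sites, 3 of them in the stretch shown, and an EGR site, the nearest AP-1 site 357 bp from the summit. The Jund regions 16.6 and 14.4 kb upstream had an AP-1 site 13 and 79 bp from their summits. The nearer one, the tallest of Jund, stood at 71 and 61 in KO, against 38 and 77 in WT. Divided by the median shared region, KO replicate 1 was highest there and WT replicate 1 lowest. Fosb had its tallest distal region 10.1 kb upstream, at chr7:19319439-19320397, with 76 and 91 in KO, against 60 and 85 in WT. The Fosb region 17.3 kb upstream, with the joined ATF element and AP-1 site 23 and 15 bp from its summit, stood at 45 and 47 in KO, against 30 and 54 in WT.

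At Egr1, 3 shared regions lay 9.9, 7.9 and 4.3 kb upstream and 2 lay 23.4 and 26.3 kb downstream. The tallest, at chr18:34855104-34855805, had 85 and 83 in KO, against 64 and 103 in WT. All 3 upstream regions had negative differences, from −0.22 to −0.068, and none passed the test. Atf3 had its shared region 12.4 kb upstream, at chr1:191230224-191230856, with 30 and 34 in KO, against 18 and 33 in WT. Its log2 difference of 0.27 (−0.25 to 0.80) was the largest of the 17. The tallest distal region of Fosl1 was a peak of 58 in KO replicate 1 alone, that of Jun a peak of 31 in WT replicate 2 alone, and that of Fosl2 a peak of 18 in KO replicate 1 and 21 in WT replicate 2.

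Elements were counted by their letters on both strands within 100 bp of each summit, where a match is a description and no evidence of binding, and where the window can run past the edge of the peak. The AP-1 site (TGAGTCA or TGACTCA) was found in 7 of the 37 distal regions, or 18.9% (at the Jun region 29.5 kb upstream just past its edge), and in 3 of the 17 shared ones, against 9.81% of all distal regions and 10.4% of all shared distal ones. A CArG box was present in 1.18% and an EGR site (GCGGGGGCG) in 0.146% of all distal regions, and in 1 and 2 of the 37. Across the genome, the AP-1 site was present in 7.11% of KO-only and in 7.77% of WT-only distal regions. Shared distal regions with an AP-1 site had a median log2 difference of 0.025, against 0.0063 for all of them, and 1 of 3265 was called. The RefSeq promoters of GRCm38.p6 run from 250 bp before to 50 bp after a start. All members but Fosl1 and Egr1 were listed there, 7 of the 9 genes. Of these, Jun held the jun1 element (TGACATCA) and the jun2 element (TTACCTCA), which 3.62% and 0.889% of 32851 promoters held. Atf3 held the ATF element (TTACGTCA), as 0.499% of promoters did. Fosb and Fosl2 held the EGR site, as 2.91% did. The CArG boxes shown above for Fos and Fosb lay 304 and 262 bp before the GENCODE start. In the Egr1 peak a CArG box lay 78 bp before a GENCODE start, and in the Fosl1 peak an AP-1 site lay 21 bp before one. Neither gene was listed, so neither enters the counts that follow. In the RefSeq windows 0 of the 7 held a CArG box and 0 an AP-1 site, against 1.63% and 5.20% of promoters. The CRE (TGACGTCA) was in 1.79% of them, and the RefSeq window of Jund, which uses another start, did not reach the CRE shown above.

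The other genes of the pathway were also without a call. Of 15 other bZIP partners of AP-1, 26 other immediate early genes, 18 kinases and SRF or ETS factors upstream, and 21 textbook AP-1 targets, 71 of 80 had a promoter peak in all 4 libraries. That is 88.8%, against 62.3% of all genes. None of the 80 had a peak in both libraries of 1 group and neither of the other, for which no share over all promoters was taken. Limma called 0 higher and 0 lower, with 5 of the 71 (7.04%) at an unadjusted p under 0.05, against 3.82% of all promoters. Median log2 differences were 0.057 for the bZIP partners, −0.011 for the immediate early genes, 0.041 for the upstream factors and 0.16 for the targets, against −0.0048 over all promoters. Among the cell type lists the median was 0.35 for precursor and glioma markers and −0.11 for neuronal markers. It was −0.42 for mature oligodendrocyte markers and 0.0020 for endothelial markers, each from only 3 genes open in all libraries. The summed promoter height of the precursor and glioma markers was 3.08 and 5.13 median promoters in KO, against 3.63 and 3.05 in WT, and its part in the median of the targets was not tested. Among the targets, the matrix metalloproteinase genes Mmp3, Mmp10 and Mmp13 and the osteopontin gene Spp1 had no promoter peak in any library. The local background within 1 Mb of the 9 genes, as a multiple of the genome background, differed between the group means by at most 0.304.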

How the data were processed

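The authors deposited 1 peak list per tumor. MACS2, HOMER and mm10 are named in the submitters' processing notes, while the study's methods describe Bowtie2 on GRCm38.p6, removal of mitochondrial and duplicate reads, and Genrich. The columns follow MACS2. No transposase shift is stated in these sources. For each peak the authors deposited a score (not used in tests), a fold over local background (a ratio), a −log10 p-value and a −log10 q-value. The lists hold no read counts. Heights were recovered from fold and −log10 p, with 2 of 331481 peaks left unmatched at a tolerance of 0.001. A peak below the caller's threshold has no height, so limma saw only features open in all 4 libraries.

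Peaks sharing at least 1 bp were merged. Chromosome lengths of the reference held all peaks. Each promoter took its tallest peak over any start. Heights were tested with limma 3.58.1 in R 4.3.3 (lmFit and eBayes with trend), at an adjusted p of 0.05, and intervals are at 95%. Other steps used Python 3.11.15. Functions were tested on simulated data. Groups came from the sample titles. The study describes separate mice, and the labels tie no KO tumor to a WT tumor of the same number.

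All 9 genes are named, with their tallest distal regions, and genes of other lists where called, which none was. Marker genes, and target genes with no peak in any library, were named after their values were seen. Members, lists, motifs and tests were chosen with earlier results of these data known. Alternatives covered scaling, value, filters, promoter width, flanks, merging, replicate block and each replicate left out.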

Additional observations from a re-analysis of the deposited data

How the results depend on the processing

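Every alternative left the 9 promoters open in all libraries and called 0 of the 9 promoters and 0 distal regions of the set. Adjusted p-values by limma were at least 0.394 over 14 settings for the promoters and at least 0.492 over 17 for the distal regions. Over all genes the promoter calls moved between 0 and 171 (2 as reported) and the region calls between 7 and 101 (19 as reported), with the highest promoter count without KO replicate 1. Left-out replicates moved the distal counts by construction, since a single library then stands for its group: KO-only regions ran from 0 to 4 and WT-only regions from 0 to 5, against 0 and 0. The highest, 10.8% without KO replicate 1 and 13.5% without WT replicate 1, compare with 10.7% and 17.9% of all distal regions. The directions of the promoter differences were not stable, as 23 of 126 values changed sign. Scaling to the genome background shifted the median of all promoters to −0.11 on the log2 scale, and Fos was then −0.062, Jund −0.10 and Egr1 −0.065. With the log2 of the deposited fold, Fos was −0.20, Junb −0.034, Jund −0.13 and Jun 0.022, and with quantile normalization Jun was 0.0072. With promoters of 500 bp, Fosb was 0.18 and Jund −0.0071, and with 2500 bp Jund was −0.0031. With each replicate left out in turn, Fos ran from −0.013 to 0.092, Fosb from −0.16 to 0.084 and Fosl1 from −0.31 to 0.016. Fosl2 ran from −0.054 to 0.28, Jun from −0.14 to 0.061 and Junb, with no change of sign, from 0.085 to 0.14. Jund ran from −0.12 to 0.11, Atf3 from −0.065 to 0.47 and Egr1 from −0.038 to 0.12. The cause was not tested. Tumors of the same number did not deviate together (correlation −0.21 for promoters, −0.34 for regions). The replicate block called 0 of the 9 promoters and 0 of the distal regions, with 10 promoters and 10 regions over all genes. The crossed pairing, added after seeing the data, called 0 and 0, with 30 and 101. With 2 tumors per group, differences smaller than the intervals given could not be shown, and a region below the caller's threshold in a shallow library counts as absent.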
